A study of Rattus norvegicus with 20 samples.

Results

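Diclofenac at its full and its 1/5 dose was compared after 24 h in primary heart cell cultures from neonatal rats, across 30385 genes. Diclofenac, a painkiller of the non-steroidal class, blocks both cyclooxygenases, the enzymes that turn arachidonic acid into prostaglandins. The comparison used 6 of the 20 arrays of the study, chosen by their titles: 3 arrays of cells given diclofenac at reference concentration 1 for 24 h (full dose) and 3 arrays of cells given 1/5 of that concentration for 24 h (1/5 dose). All cultures grew for a day in DMEM medium before treatment, carried no labelled genetic change, and were labelled as cardiomyocytes, the contracting cells of heart muscle. The molar value of the reference concentration is not given in the labels. Groups that serve only for context are cells at 1/25 of the concentration for 24 h (3 arrays), the full dose, 1/5 and 1/25 at 6 h (3 arrays each) and untreated cells (2 arrays). Whether replicates were separate cultures or animals is not in the labels. The p-values therefore cover the spread between arrays alone, and that spread may be technical.

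Heart cells make prostaglandins from arachidonic acid that phospholipases release from membranes, and respond to them through G-protein-coupled receptors. Cardiomyocytes also depend on mitochondrial ATP for contraction, and diclofenac and related drugs are known from other work to affect mitochondria. Heart cells carry interferon receptors, and interferons induce a shared set of genes, the immunity-related and guanylate-binding GTPases among them.

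Each value is an Agilent 1-colour array signal (Cy3), given as its log2 minus the log2 of the array's own 75th percentile, so a level of 0 is the brightness of that percentile and a level below 0 is dimmer. The arrays of the 2 doses differed in brightness: the 75th percentile was 21937, 14356 and 18177 intensity units on the full-dose arrays (replicates 1, 2 and 3), against 9623, 13095 and 3165 on the 1/5-dose arrays. On the full-dose arrays 84.3%, 82.5% and 85.9% of spots were well above background, against 76.5%, 81.4% and 64.1% on the 1/5-dose arrays. The third 1/5-dose array was the dimmest of all 20. Saturated spots made up 10.8%, 8.99% and 10.2% on the full-dose arrays, against 6.77%, 7.99% and 4.93% on the 1/5-dose arrays. All full-dose arrays of 24 h lay on one slide and all 1/5-dose arrays of 24 h on another, so dose and slide cannot be told apart. In bulk RNA, fewer cells of a type and less RNA per cell cannot be told apart either. Over genes, levels on the full-dose arrays correlated at 0.919 to 0.966 (Pearson r, a description across genes, which are not independent replicates), and the 1/5-dose arrays at 0.921 for the first with the second, 0.822 for the first with the third and 0.737 for the second with the third. The second full-dose array was closer to the first 1/5-dose array (r = 0.975) than to either other full-dose array.

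No gene passed the test of full against 1/5 dose at 24 h. With limma and Benjamini-Hochberg adjustment over all genes, 0 of 30385 genes had an adjusted p under 0.05 (0.0%). At an unadjusted p under 0.05 there were 6549 genes (21.6%), of which 2168 had a higher mean at full dose (7.14%) and 4381 a lower one (14.4%). The smallest adjusted p was 0.0782, for Igtp, and 2348 further genes shared the next value of 0.114. The median difference of all genes was -0.01 on the log2 scale, and the median SE of a difference was 0.493. Each SE comes from 1 estimate of a gene's spread that all groups of the fit share. It can understate the spread among the 1/5-dose arrays. The count of 0 depended on single arrays: 8 genes passed without the first 1/5-dose array, 8691 without the second, 1 without the third and 1 without the third full-dose array, while 0 passed without the first or the second full-dose array. The pair of 1/5-dose arrays that remain when the second is left out are the pair with the fewest spots well above background among these 6 arrays.

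Igtp, an interferon-induced GTPase of the immunity-related GTPase family, had the lowest p and one of the larger differences. Its probe lies at chr10:43865662-43865721 on build rn3, as given in the array files. Igtp was at -3.98, -4.26 and -5.32 on the full-dose arrays, against -7.87, -8.26 and -6.61 on the 1/5-dose arrays. The groups did not overlap, and the probe was well above background on all 3 full-dose arrays and on none at 1/5 dose. The difference was 3.06 ± 0.44 (log2, SE, n = 3 each; limma adjusted p = 0.0782). As the 1/5-dose signal was not above background, the fold is only a bound: Igtp was at least 1.99-fold higher at full dose, taking as the dim level, array by array, the higher of the probe's own signal and the faintest signal counted as well above background. Without the third 1/5-dose array the difference was 3.54 and the limma adjusted p 0.00641. Over all alternatives run, the adjusted p of Igtp ranged from 0.00225 to 0.641.

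Igtp was also not well above background on any untreated array (-7.91 and -7.80), nor on the 1/25 arrays at 24 h (-7.73, -8.56 and -8.50). At 6 h none of the 3 doses brought its probe above background, and no difference between the full and 1/5 dose passed the test there (limma adjusted p = 1.0). The full dose at 24 h was therefore the one group of the 7 in which the Igtp probe was measured above background. Probes had to be well above background on all arrays of some group, so the Igtp probe passed this filter through that group alone. The promoter of Igtp (250 bases before the transcript start, RefSeq, build GRCr8) is shown beside that of Irgm, a second immunity-related GTPase with a measured probe, because both hold the core of the interferon response element, GAAA and again GAAA after any 2 bases, in capitals. Irgm was chosen after its values were seen.
Igtp: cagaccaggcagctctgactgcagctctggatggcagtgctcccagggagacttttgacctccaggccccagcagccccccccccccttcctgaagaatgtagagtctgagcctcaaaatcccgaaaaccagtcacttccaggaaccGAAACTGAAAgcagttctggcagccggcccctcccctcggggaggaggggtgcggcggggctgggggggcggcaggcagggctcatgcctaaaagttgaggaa
Irgm: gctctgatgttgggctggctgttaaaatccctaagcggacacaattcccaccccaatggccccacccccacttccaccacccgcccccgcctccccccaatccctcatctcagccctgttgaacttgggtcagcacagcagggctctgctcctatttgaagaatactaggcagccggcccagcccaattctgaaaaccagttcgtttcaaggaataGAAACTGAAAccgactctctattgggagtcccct
The Igtp window is chr10:42874797-42875046 on the plus strand and the Irgm window chr10:33742579-33742828 on the minus strand. Each holds 1 match, GAAACTGAAA, whose first base lies 103 bases before the start of Igtp and 34 bases before that of Irgm. Searched on both strands, the motif was in 902 of 27457 rat promoters of this length (3.29%) and in 13 of the 19 interferon-stimulated genes with a promoter sequence. A match is a description of these letters and not a measured binding site.

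Irgm did not share the Igtp pattern. Irgm was at -0.94, -0.23 and -0.45 on the full-dose arrays, against 0.44, -0.71 and -1.03 on the 1/5-dose arrays. The groups overlapped, with a difference of -0.10 ± 0.37 (log2, SE, n = 3 each; limma adjusted p = 0.88), or -0.40 without the third 1/5-dose array. Of the 22 interferon-stimulated genes measured, 0 passed the test, 10 had a higher mean at full dose, and the median difference was -0.10, against -0.01 for all genes. Igtp was the single member with all full-dose arrays above all 1/5-dose arrays, a separation found in 1524 of the 30282 genes with a value on all 6 arrays (5.03%). Ifit1 and B2m were among 3 members with all full-dose arrays below the 1/5-dose arrays, as were 3556 of all genes (11.7%). Ifit1, which binds foreign RNA, differed by -0.76 ± 0.41, and B2m, the light chain of MHC class I, by -1.20 ± 0.44 (log2, SE; limma adjusted p = 0.276 and 0.144), or by -0.53 and -0.46 without the third 1/5-dose array. Ifit2, of the same family as Ifit1, had the second largest difference of the list, 1.98 ± 0.80, which was 0.50 without the third 1/5-dose array. Gbp2, a guanylate-binding GTPase, was nearly level between doses, with a difference of -0.09 ± 0.33, or 0.20 without that array.

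**Figure D1:**
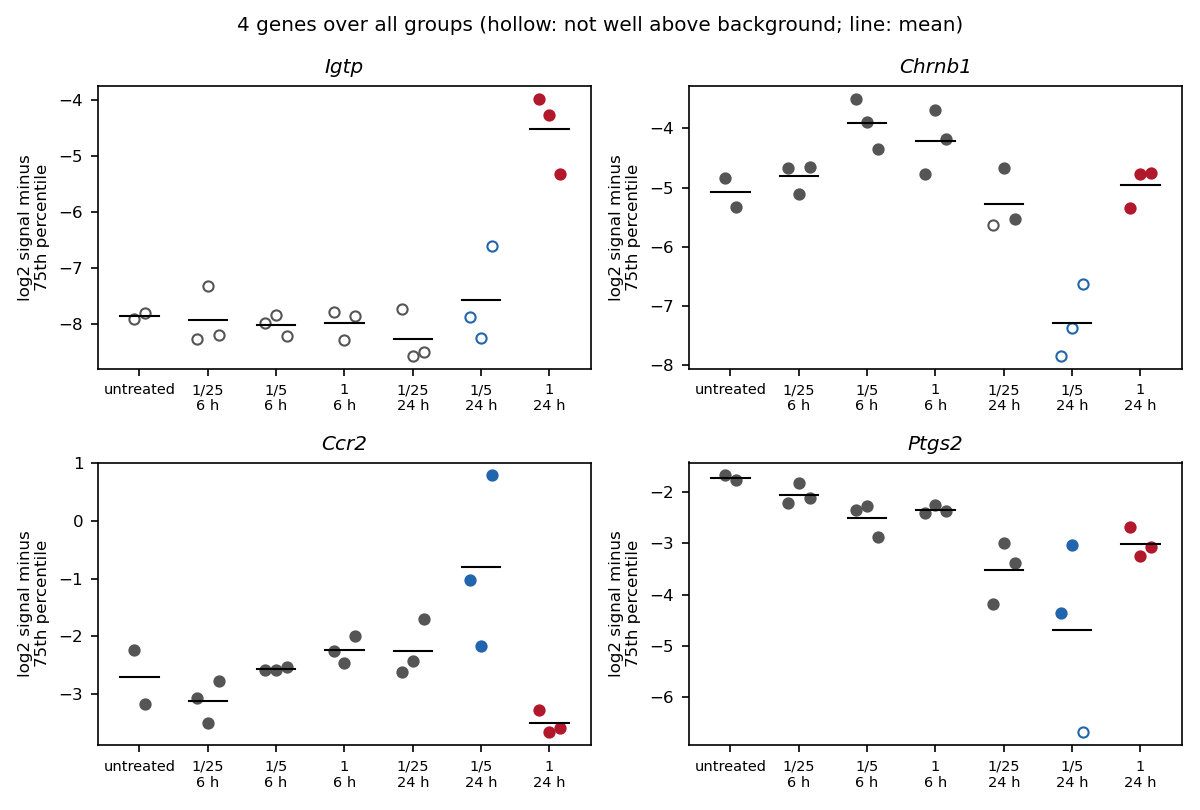
Levels of Igtp, Chrnb1, Ccr2 and Ptgs2 (vertical axis, log2 signal minus the array's 75th percentile) on each array of the 7 groups, ordered by time and dose, with full dose at 24 h in red and 1/5 dose at 24 h in blue. Filled points are well above background, hollow points are not, and the line is the group mean. Igtp is filled in the full-dose group at 24 h alone, at -3.98 to -5.32. For Chrnb1 the 1/5-dose group at 24 h is hollow throughout, and 1 array at 1/25 and 24 h is hollow too.

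The other genes with the smallest p on the higher side (all at a limma adjusted p of 0.114) split by how the remaining groups looked. Chrnb1, the beta subunit of the muscle nicotinic acetylcholine receptor, was at -5.35, -4.78 and -4.75 at full dose, against -7.84, -7.38 and -6.63 at 1/5 dose. It was above background on no 1/5-dose array, so it was at least 1.47-fold higher at full dose. Untreated cells (mean -5.08) and cells at 1/25 (mean -5.28) were near the full-dose mean of -4.96, so by its mean the 1/5-dose group was the one that stood apart. The first 1/25 array, at -5.64, was not well above background and shared the slide of the 1/5-dose arrays. Or8c16c, an olfactory receptor gene, had the same shape, with -3.74, -4.99 and -4.25 at full dose, against -5.54, -6.42 and -6.68 at 1/5 dose, and untreated and 1/25 means of -4.34 and -4.73. It was at least 2.14-fold higher at full dose.

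Socs4, of the suppressor of cytokine signalling family, had the tightest replicates: -2.55, -2.77 and -2.50 at full dose, against -4.03, -3.89 and -4.03 at 1/5 dose. Its difference was 1.38 ± 0.28 (log2, SE, n = 3 each), and 1.35 without the third 1/5-dose array. Untreated cells (mean -3.48) and cells at 1/25 (mean -3.41) lay between the 2 doses, nearer to the 1/5 dose.

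Egfr, the epidermal growth factor receptor, had the largest difference among these genes, 3.35 ± 0.70 (log2, SE, n = 3 each; limma adjusted p = 0.114). It was at -1.93, -2.82 and -2.53 at full dose, against -5.66, -5.20 and -6.48 at 1/5 dose, and 1 of the 3 arrays at 1/5 dose was well above background. A second kept probe of Egfr gave a difference of 0.88, also without overlap, so the probes of this gene disagreed in size. On the 1/25 arrays at 24 h Egfr was spread over -6.50, -2.49 and -4.13, and the array at -6.50 shared the slide of the 1/5-dose arrays. Untreated cells were at -2.18 and -3.60. Thus untreated cells were near the full dose for Egfr as well.

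Gja4, a gap junction connexin of arterial endothelium, differed by 1.39 ± 0.29 and Nefm, the medium neurofilament chain, by 1.37 ± 0.31. For both, the untreated and 1/25 means (-2.59 and -2.28 for Gja4, -2.15 and -1.62 for Nefm) were near the full-dose means of -2.78 and -1.83. Tmeff1, a transmembrane protein with follistatin-like domains, differed by 1.77 ± 0.40, with untreated cells (mean -2.25) near the full-dose mean of -2.37 and the 1/25 group (mean -4.24) near the 1/5-dose mean of -4.15. Mettl25, a methyltransferase-like protein, differed by 1.80 ± 0.42. In all, the untreated mean was nearer to the full dose than to the 1/5 dose for 8 of the 10 genes that the rule chose on the higher side, and the 1/25 mean for 6 of the 10. These genes were chosen by the difference between the 2 doses, and the share over all genes was not computed. The counts therefore describe the chosen genes alone.

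The genes with the smallest p on the lower side were again all at a limma adjusted p of 0.114. Ccr2, the chemokine receptor that draws monocytes into tissue, was at -3.28, -3.66 and -3.58 at full dose, against -1.03, -2.16 and 0.79 at 1/5 dose. The full-dose arrays lay close together while the 1/5-dose arrays were widely spread, and the third was the highest. The difference was -2.71 ± 0.53 (log2, SE, n = 3 each), and -1.91 without that array. Untreated cells were at -2.24 and -3.17 and the 1/25 group averaged -2.25, so both lay between the 2 doses.

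Cblif, the intrinsic factor that binds cobalamin, was at -6.53, -6.15 and -6.08 at full dose, against -4.51, -4.37 and -1.93 at 1/5 dose. It was well above background on 1 full-dose array and on all 1/5-dose arrays. Cndp1, which cleaves the dipeptide carnosine, was at -8.22, -6.24 and -7.96 at full dose, against -5.37, -5.94 and -3.88 at 1/5 dose. No full-dose array was well above background for Cndp1, nor was the second 1/5-dose array, so no fold is given. The fitted difference of -2.41 was -1.82 without the third 1/5-dose array, and it rests in part on background levels. Both untreated arrays were above background for Cndp1, with a mean of -5.07.

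Kcnj4, an inward-rectifier potassium channel, was at -3.49, -2.86 and -3.15 at full dose, against -1.23, -2.17 and 0.74 at 1/5 dose. As for Ccr2, the third 1/5-dose array was the highest, and the difference of -2.28 ± 0.55 was -1.47 without it. Sim2, a basic helix-loop-helix transcription factor, differed by -1.90 ± 0.44 on its brightest probe, but its other kept probe gave 0.12. Zfp53, a zinc finger protein, differed by -1.51 ± 0.35. For 5 of the 6 lower genes that were not saturated throughout a group, the untreated mean was nearer to the full dose than to the 1/5 dose, and for 5 of the 6 the 1/25 mean was. As on the higher side, these counts describe genes chosen by the difference itself, without a share over all genes beside them.

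The remaining 4 lower genes were at the scanner's ceiling. RT1-CE5 (an MHC class I heavy chain), Hdc (histidine decarboxylase, which makes histamine), Rnf166 and Cblc (both of ubiquitin ligase families) were saturated on all 3 full-dose arrays, and on 2 or 3 arrays at 1/5 dose. On arrays where they were saturated their levels were close: RT1-CE5, Hdc and Cblc were at 1.51, 1.55 and 1.51 on the first full-dose array, against 3.12, 3.04 and 3.07 on the first 1/5-dose array. A saturated spot gives only a lower bound on the signal, so no fold is given for them. Scaled by the 75th percentile, such a spot takes its level from that percentile, so these 4 genes show no direction. Away from the ceiling, 2 more kept probes of RT1-CE5 gave differences of -0.34 and 1.23, and a second kept probe of Cblc gave -1.76.

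**Figure D2:**
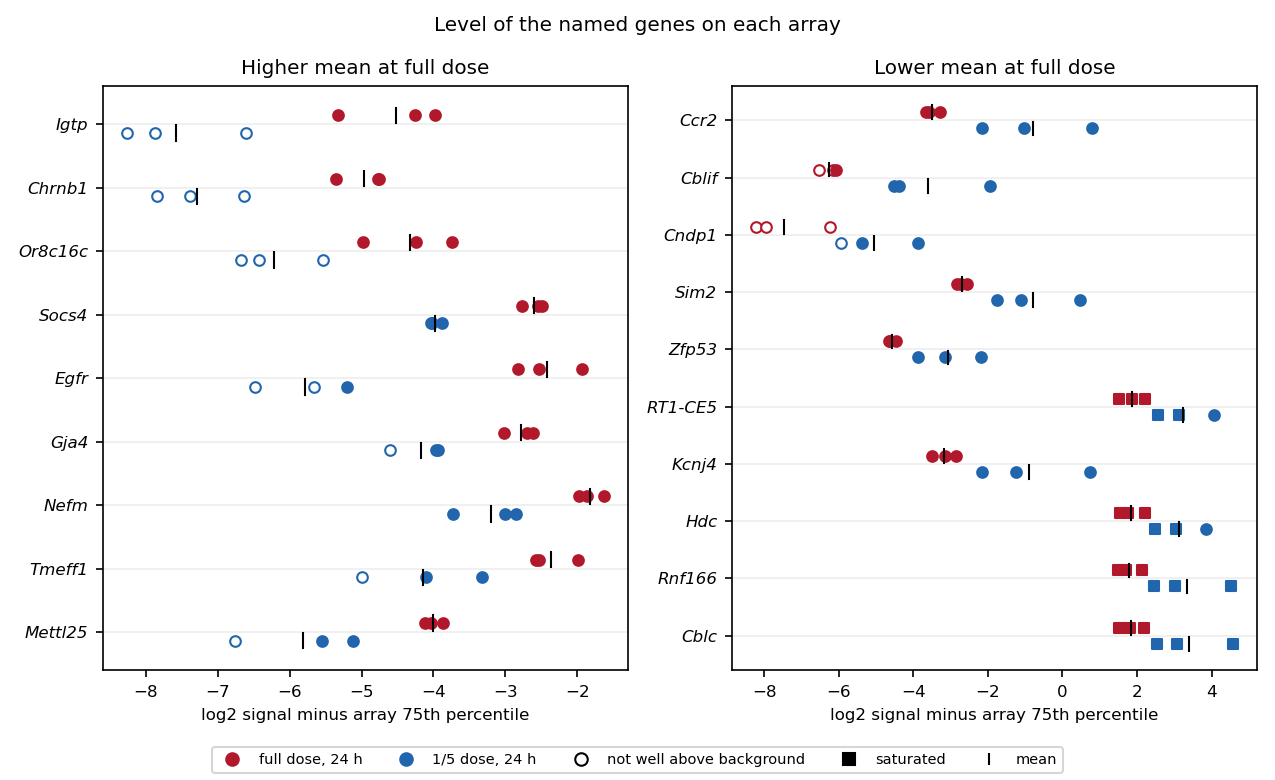
Levels of the named genes with the smallest p on each side (horizontal axis, log2 signal minus the array's 75th percentile), with the 3 full-dose arrays in red above the 3 arrays at 1/5 dose in blue. Hollow points are not well above background, squares are saturated and the short vertical lines are means. Igtp, Chrnb1 and Or8c16c are hollow on every 1/5-dose array, Cndp1 on every full-dose array, and RT1-CE5, Hdc, Rnf166 and Cblc are squares on every full-dose array.

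The direction of the difference moved with how bright a gene is. Genes were divided into 8 equal bins by their mean level on the other 14 arrays. The median difference between full and 1/5 dose was 0.24 in the third bin from the dimmest and -1.05 in the brightest bin, where 98.6% of genes were saturated on at least 1 of the 6 arrays. In the brightest bin the third 1/5-dose array stood 1.82 above the other 14 arrays in the median, the first 0.63 and the second 0.23, and the full-dose arrays stood at -0.49, 0.11 and -0.21. Without the third 1/5-dose array the median of the brightest bin was -0.61. The scaled level of a saturated spot is set by the array's 75th percentile, which was higher on the full-dose arrays, so the 1344 genes saturated on all 6 arrays carry no information on dose, and 1343 of them are among the genes counted as lower at an unadjusted p under 0.05. Of the 3556 genes with all full-dose arrays below, 2429 were saturated on at least 1 of the 6 arrays. Among the 17182 genes that were well above background and unsaturated on all 6, 609 had all full-dose arrays above (3.54%) and 996 all below (5.8%).

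**Figure D3:**
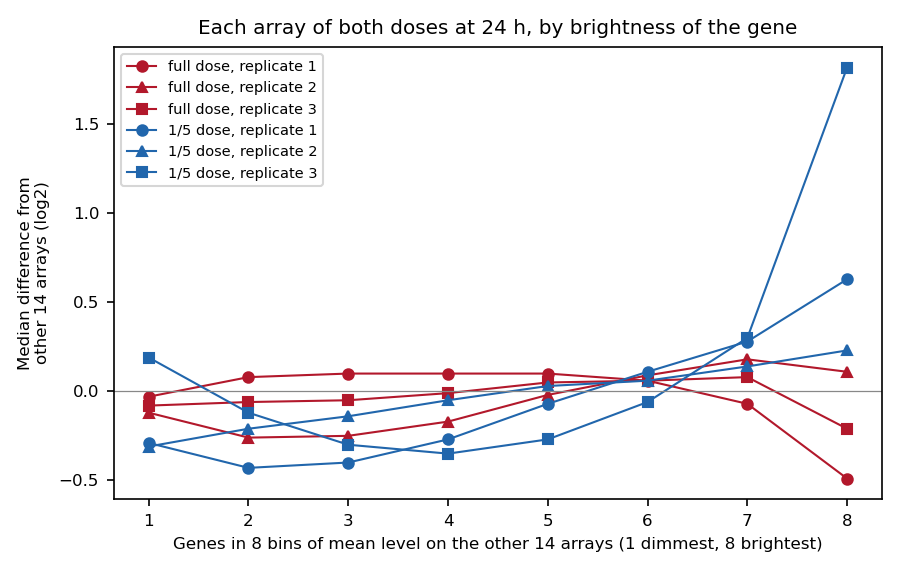
Median difference of each array from the other 14 arrays of the study (vertical axis, log2) in 8 bins of gene brightness (horizontal axis, dimmest to brightest), full dose in red and 1/5 dose in blue. The lines lie closest together in the sixth bin, at -0.06 to 0.11, and a 1/5-dose array lies as low as -0.43 in the second bin. They part most in the brightest bin, where full-dose arrays stand at -0.49 to 0.11 and 1/5-dose arrays at 0.23 to 1.82.

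Dim genes were detected more often at full dose. There were 274 genes well above background on all 3 full-dose arrays and on no 1/5-dose array, and 2 genes with the reverse. Leaving out the third 1/5-dose array gave 341 and 6. Of the 274 genes, 107 were well above background on both untreated arrays and 16 on all 3 arrays at 1/25. A further 45 were above background neither in untreated cells nor at 1/25, and Igtp was among them. The share of spots above background on each array, given earlier, runs the same way as these counts, and its part in them was not tested.

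Diclofenac's own targets did not pass the test. Ptgs1, the constitutive cyclooxygenase, was at 1.00, 1.05 and 1.33 at full dose, against 0.74, 1.26 and -2.10 at 1/5 dose. The groups overlapped, the third 1/5-dose array was far below the rest, and the difference of 1.16 ± 0.57 (log2, SE, n = 3 each; limma adjusted p = 0.241) was 0.12 without it. The SD was 0.18 over the full-dose arrays and 1.81 over the 1/5-dose arrays, a gap that the shared SE does not show. Ptgs2, the inducible cyclooxygenase, was at -2.69, -3.25 and -3.07 at full dose, against -4.36, -3.02 and -6.68 at 1/5 dose. The difference for Ptgs2 was 1.68 ± 0.61 (limma adjusted p = 0.136) and 0.69 without the third array, which was not well above background. In untreated cells Ptgs2 was at -1.67 and -1.77, higher than on any array at 24 h, and the 1/25 group averaged -3.52.

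Of the 18 prostanoid synthesis and receptor genes measured, 0 passed, 13 had a higher mean at full dose, and the median difference was 0.57, or 0.14 without the third 1/5-dose array, against -0.01 and 0.01 for all genes. Upstream of the cyclooxygenases, Pla2g4a, the phospholipase that releases arachidonic acid, was at -3.80, -3.68 and -3.80 at full dose, against -3.59, -3.66 and -6.48 at 1/5 dose. Here again a single low array made the difference of 0.82, which was -0.13 without it. Among the synthases downstream, Ptges, which makes prostaglandin E2, differed by 0.05 ± 0.31, and Ptgis, which makes prostacyclin, by 1.33 ± 0.69, or by -0.05 and 0.20 without the third 1/5-dose array. Ptges2, a second prostaglandin E synthase, was the one member with full-dose arrays all below, at 1.56, 1.91 and 1.90, against 2.41, 2.23 and 3.08, and some of its spots were saturated in each group. Among the receptors, Ptgir, for prostacyclin, differed by 1.74 ± 0.85 with overlapping groups, Ptgfr, for prostaglandin F, by -0.84 ± 0.41, and Tbxa2r, for thromboxane, by -0.91 ± 0.90. Without the third 1/5-dose array these were 0.74, -0.60 and -0.59. None of these differences passed (limma adjusted p 0.24 to 0.936 for the genes named from Ptges to Tbxa2r, Ptges2 apart at 0.125).

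Heart muscle genes went both ways and none passed. Of 23 contractile and sarcomere genes, 8 had all full-dose arrays below the 1/5-dose arrays (against 11.7% of all genes) and 0 all above, and 8 were saturated on at least 1 array. The list's median difference was -0.35, or -0.49 without the third 1/5-dose array and 0.02 under quantile normalization. With both changes it was -0.07. Over the 15 genes without a saturated spot it was 0.15. Of the 23 genes, 8 had a higher mean at full dose. Among the 8 below, Myl3 had no saturated spot and differed by -0.66, or by -0.72 without that array. Tnnc1 and Myh7, each with 1 saturated spot, differed by -1.83 and -1.95, or by -1.01 and -0.8 without it. Ttn, the giant sarcomere spring protein titin, was at 0.79, 1.53 and 0.98 at full dose, against 1.20, 0.31 and -6.63 at 1/5 dose. Mybpc3, cardiac myosin-binding protein C, was at -0.25, -2.20 and 0.27 at full dose, against -3.41, -0.32 and -6.70 at 1/5 dose. For both, the third 1/5-dose array was not well above background, and the differences of 2.81 and 2.75 were 0.35 and 1.13 without it.

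In the cardiac stress and fetal list (13 genes measured, median 0.33, or -0.24 without the third 1/5-dose array), Postn, the matrix protein periostin, was at 0.40, -0.87 and 0.03 at full dose, against -2.38, -0.98 and -5.07 at 1/5 dose. Its groups did not overlap, and the difference was 2.66 ± 0.79 (limma adjusted p = 0.114), or 1.53 without the third 1/5-dose array. Edn1, the vasoconstrictor endothelin, differed by 1.76 ± 0.85 with overlapping groups, or by 0.46 without that array. Among 25 calcium handling and ion channel genes (median 0.18), Kcnj2, the channel of the cardiac resting potential, differed by -1.32 ± 0.63 with overlapping groups, or by -0.37 without it.

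Genes of energy metabolism gave medians on the lower side for oxidative phosphorylation and near 0 for fatty acid oxidation. The 25 oxidative phosphorylation genes had a median of -0.53 (-0.22 under quantile normalization, -0.35 without the third 1/5-dose array). Of these, 6 had all full-dose arrays below and 0 all above (11.7% and 5.03% of all genes). Among the 6 below, Ndufb8, Cycs and Atp5pd had saturated spots. The list's median was -0.19 over the 19 genes unsaturated on all 6 arrays, against 0.11 for all such genes. It was -0.09 under quantile normalization without the third 1/5-dose array. Ndufv2, a complex I subunit, was at -1.73, -0.37 and -0.90 at full dose, against 0.13, -0.35 and 3.28 at 1/5 dose. The third 1/5-dose array alone was far above the rest, and the difference of -2.02 was -0.89 without it. Atp5f1b, the catalytic beta subunit of ATP synthase, was at 1.54, 0.64 and 1.30 at full dose, against -0.65, 0.73 and -3.85 at 1/5 dose, so these 2 genes of the list lay in opposite directions on the third array. The difference of 2.42 for Atp5f1b was 1.12 without it. The 25 fatty acid oxidation and PPAR target genes had a median of 0.14, with Cpt1a, the gate of mitochondrial fatty acid import, at 1.40 ± 0.70 and Hadhb, a subunit of the trifunctional enzyme, at 1.93 ± 0.88 (0.26 without the third 1/5-dose array).

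The 21 mitochondrial stress and quality control genes had a median of -0.34, or 0.07 under quantile normalization and -0.17 without the third 1/5-dose array. Of these, Hspa9, the mitochondrial chaperone, was saturated on all 6 arrays. Pink1, the kinase that marks damaged mitochondria, differed by -1.44 ± 0.64 with overlapping groups, or by -0.54 without the third 1/5-dose array. The 30 cytosolic ribosomal protein genes had the lowest median of the 24 lists, -0.84, with 12 all below (11.7% of all genes, and 5.8% of those measured and unsaturated on all 6 arrays) and 17 saturated on at least 1 of the 6 arrays. Quantile normalization moved that median to -0.07. It was -0.59 without the third 1/5-dose array, and -0.65 over the 13 genes unsaturated on all 6 arrays. Rps7, of the small subunit, was at -1.65, 0.35 and 0.16 at full dose, against 0.58, 0.66 and 3.59 at 1/5 dose. Rpl4, of the large subunit, was at 0.88, -0.38 and 1.17 at full dose, against -0.78, 1.13 and -5.63 at 1/5 dose. The differences of -1.99 for Rps7 and 2.32 for Rpl4 were -1.0 and 0.38 without the third 1/5-dose array. The 26 proteasome genes had a median of -0.30, or -0.02 under quantile normalization and -0.42 without the third 1/5-dose array. Psmd14, the lid deubiquitinase, differed by 1.88 ± 0.73, or by 0.58 without that array.

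Stress pathways were also without a call. Among 24 genes of oxidative stress controlled by NRF2, a transcription factor that induces antioxidant genes, 2 had all full-dose arrays above and 5 all below (5.03% and 11.7% of all genes), with a median of 0.23 (-0.05 without the third 1/5-dose array). Slc7a11, the cystine importer, was at -3.45, -3.95 and -3.34 at full dose, against -4.51, -4.34 and -6.73 at 1/5 dose. Abcc1, an exporter of glutathione conjugates, was at 0.01, -0.23 and -0.18 at full dose, against -1.25, -0.84 and -3.29 at 1/5 dose. Neither gene overlapped between doses, and without the third 1/5-dose array the differences of 1.62 and 1.66 were 0.85 and 0.91 (limma adjusted p = 0.114 for both with all arrays).

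The integrated stress response and ER stress list (24 genes) had a median of 0.24, or -0.23 without the third 1/5-dose array. Vldlr, a lipoprotein receptor on that list, differed by 2.59 ± 0.79 and Slc3a2, the heavy chain of amino acid transporters, by 2.46 ± 1.11, both with overlapping groups, and by 1.65 and 0.76 without that array. On this list 1 gene, Slc7a11, had all full-dose arrays above and 7 all below (5.03% and 11.7% of all genes). Of the 24 genes, 5 were saturated on at least 1 array. Chac1 and Asns, both unsaturated and all below, differed by -1.17 and -1.27. Without the third 1/5-dose array they differed by -0.63 and -0.64. In the heat shock list (18 genes, median -0.25) Hspa1a, the inducible chaperone of cytosolic stress, was at -2.90, -2.57 and -2.45 at full dose, against -2.24, -2.13 and 1.47 at 1/5 dose. The groups did not overlap, and the difference of -1.68 was -0.46 without the third array. Among p53 targets (20 genes, median -0.48, -0.16 without the third 1/5-dose array) and apoptosis regulators (24 genes, median -0.01), Bbc3, the BH3-only protein PUMA, was at -1.13, -0.76 and -1.24 at full dose, against 0.17, -0.63 and 2.84 at 1/5 dose. The difference of -1.84 was -0.81 without the third array.

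Among 34 cell cycle genes (median 0.06), 4 had all full-dose arrays above and 1 all below (5.03% and 11.7% of all genes). Mcm6, part of the replicative helicase, was at -4.35, -4.84 and -3.72 at full dose, against -7.74, -4.86 and -6.64 at 1/5 dose, with 1 of the 3 arrays at 1/5 dose well above background. Ccnd2, a D-type cyclin, differed by 2.32 ± 0.88 with overlapping groups, or by 1.42 without the third 1/5-dose array. Of 21 inflammatory cytokine and NF-kB target genes (median -0.30, -0.10 without the third 1/5-dose array), Ccl3, a macrophage chemokine, was at -5.99, -6.04 and -5.75 at full dose, against -4.57, -4.51 and -2.54 at 1/5 dose. The full-dose arrays were tight and all below, and the difference was -2.06 ± 0.61 (limma adjusted p = 0.114), or -1.39 without the third 1/5-dose array. Ccl20, a lymphocyte chemokine, differed by -1.73 ± 0.72.

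The other lists had medians between -0.39 and 0.31 with 0 called. In hypoxia and glycolysis (30 genes, 0.31), Pgk1 and Pfkp, both glycolytic enzymes, differed by 2.95 ± 1.08 and -2.15 ± 0.76, and by 1.10 and -0.72 without the third 1/5-dose array. In extracellular matrix (26 genes, -0.39), 11 genes were saturated on at least 1 array. The median was 0.27 over the other 15, 0.04 under quantile normalization and -0.18 without the third 1/5-dose array. Col6a3, a type VI collagen chain, and Sparc, a collagen-binding glycoprotein, differed by 2.47 ± 1.03 and -2.63 ± 1.01. Without that array they differed by 0.55 and -0.65. In cholesterol synthesis (28 genes, -0.14, or 0.25 over the 22 genes unsaturated on all 6 arrays), Fdft1, squalene synthase, differed by 2.68 ± 1.19 with overlapping groups. Fdft1 was at -7.90, -2.56 and -6.71 at 1/5 dose and well above background on 1 of these arrays, so this value is no measure of size. In drug metabolism and transport (23 genes, 0.18) Abcb1b, a P-glycoprotein efflux pump, differed by 2.32 ± 0.91. The immediate early, autophagy and lysosome, and circadian clock lists had medians of -0.03, -0.05 and 0.06.

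**Figure D4:**
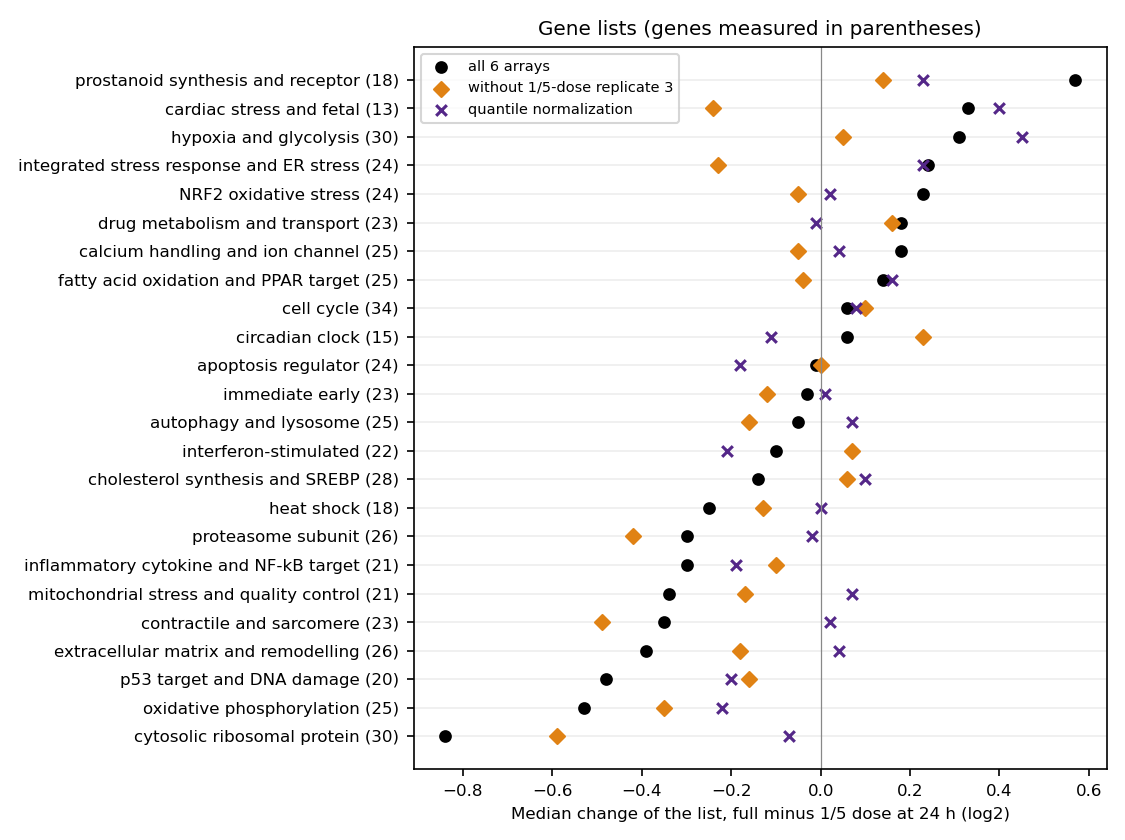
Median difference between full and 1/5 dose at 24 h of 24 gene lists (horizontal axis, log2; genes measured in parentheses) with all 6 arrays, without the third 1/5-dose array and under quantile normalization. The list medians run between -0.84 and 0.57 with all 6 arrays, and the ribosomal protein list moves to -0.07 under quantile normalization. The same list is at -0.59 without the third 1/5-dose array.

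Markers of cardiomyocytes and of other heart cells were present in both groups. All 10 cardiomyocyte markers were measured, and 10 were well above background on all full-dose arrays and 9 on all 1/5-dose arrays. Myh6, the adult atrial and rodent ventricular myosin heavy chain, was at -1.21, -0.93 and -1.04 at full dose, against 0.35, 0.07 and 4.45 at 1/5 dose, and Pln, the inhibitor of the calcium pump, was at 0.89, 1.84 and 1.62, against 2.25, 2.21 and 3.57. Both lay below without overlap, as did Tnnt2 and Actc1, which had saturated spots in both groups, and the third 1/5-dose spot of Myh6 was saturated too. Without the third 1/5-dose array the differences were -1.27 for Myh6 and -0.78 for Pln, against -2.68 and -1.23 with it. The other 6 markers overlapped between doses, and 4 of the 10 had a higher mean at full dose. The median difference was -0.24 over all 10 markers and 0.73 over the 7 that were unsaturated on all 6 arrays. Without the third 1/5-dose array the median over all 10 was -0.30, and the 7 went both ways. Actn2, Ryr2 and Mybpc3 were then at 0.35, 0.51 and 1.13. Tnni3, Myl7, Pln and Nppa were at -0.31, -0.02, -0.78 and -0.30. Nppa, the atrial natriuretic peptide, differed by 0.91 ± 0.76, or by -0.30 without the third 1/5-dose array. Of the markers of other cells, 10 of 10 fibroblast, 8 of 8 smooth muscle, 9 of 9 endothelial and 7 of 9 leukocyte markers measured were well above background on all full-dose arrays, against 6, 6, 7 and 6 on all 1/5-dose arrays. The median level of the fibroblast markers was -0.05, -0.25 and 0.23 on the full-dose arrays, against -0.76, -0.29 and 0.43 on the 1/5-dose arrays, and that of the endothelial markers -4.43, -4.37 and -4.01, against -4.33, -4.44 and -3.40. For the leukocyte markers it was -2.70, -2.12 and -2.42 at full dose, against -1.51, -2.40 and -2.87 at 1/5 dose. No marker passed the test, and the median differences of the marker lists ran from -0.42 for fibroblasts to 0.38 for leukocytes. Of the fibroblast markers, 5 of 10 were saturated on at least 1 array, and the other 5 had a median of 0.51. The part of these cells in the other differences was not tested.

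The same doses were compared at 6 h, in the same fit and with other arrays. There 2 of 30383 genes passed (0.00658%) and 850 had an unadjusted p under 0.05 (2.8%), of which 719 were higher (2.37%). Both called genes were higher at full dose. LOC291521 was not well above background on any 1/5-dose array at 6 h and was at least 5.02-fold higher at full dose (limma adjusted p = 0.00129). Synpo, an actin-associated protein, was at 0.04, 0.40 and 0.15 at full dose, against -3.42, -2.55 and -2.49 at 1/5 dose, and rose by 3.01 ± 0.43 (log2, SE; limma adjusted p = 0.0316). The genes named for the smallest p at 24 h had differences between -0.46 (Zfp53) and 0.40 (Gja4) at 6 h, and all had a limma adjusted p of 1.0 there. In the test of the 24 h difference against the 6 h difference, 1 of 30383 genes passed (0.00329%), LOC291521, and 1555 had an unadjusted p under 0.05 (5.12%), of which 514 had the higher difference at 24 h (1.69%) and 1041 the lower (3.43%). Igtp did not pass (limma adjusted p = 0.6), and as its probe was above background in 1 of the 4 groups, no size is given.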

How the data were processed

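Per the labels, total RNA was amplified and labelled with Cy3. The arrays were Agilent rat arrays, 4 to a slide. The deposited scanner files hold intensity values: per the file headers, Agilent Feature Extraction 9.5.3.1 subtracted background to give the processed signal used here. A table with a value for each array, also deposited, holds a ratio, found by comparison with the scanner files to be the processed signal over the array median over the mean of the untreated arrays (99.74% of values within 0.05 on the log2 scale). It served as an alternative.

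Processed signals of 43379 non-control spots were put on the log2 scale, minus the array's 75th percentile. Outlier spots (120 to 271 an array) were left out and saturated spots kept. Probes had to be well above background on all arrays of some group (35069 of 41012 were), and each gene was represented by its brightest such probe. Symbols were updated through RefSeq, and 18997 probes kept the file's name. Probe positions are on build rn3, per the array files, and promoters are RefSeq's on GRCr8.

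A group-means model over all 20 arrays was fitted with limma 3.58.1 in R 4.3.3, with adjustment over all genes and a threshold of 0.05. The model was tested on simulated data. Genes are named by a rule: as no gene passed, the 10 smallest p in each direction with a symbol, a difference of at least 1 and no overlap between groups, up to 2 members of each list with the difference farthest from 0, Ptgs1 and Ptgs2. Other list and marker genes were chosen after their values were seen. A few genes that the rule chose are not reported here, and the counts include them. The groups, lists and rule were set with earlier results of these data known. Alternatives covered background, scaling, filters, probe summary, samples in the fit, array weights, robust moderation, blocks and leaving out each of the 6 arrays compared. The number of arrays limits the precision.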

Additional observations from a re-analysis of the deposited data

Results flagged for a closer look

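LOC291521, which has no annotated role in the tables used here, was the gene whose dose difference at 24 h differed from that at 6 h by the test of the difference itself. The fitted difference between full and 1/5 dose at 24 h minus that at 6 h was -5.09 (log2, 3 arrays in each of 4 groups; limma adjusted p = 0.012). The probe was above background in 1 of the 4 groups, the full dose at 6 h, so this value rests on background levels and is no measure of size. The probe also passed the filter on dim probes through that group alone. At 6 h LOC291521 was at -4.32, -2.96 and -4.15 on the full-dose arrays, against -7.97, -7.92 and -8.24 on the 1/5-dose arrays, where it was not well above background, so it was at least 5.02-fold higher at full dose. At 24 h it was well above background in neither group, with -8.49, -8.45 and -8.57 at full dose, against -7.95, -8.28 and -6.70 at 1/5 dose. The call was lost without any one full-dose array of 24 h, although the gene was not above background on them.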

How the results depend on the processing

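The counts of genes past the threshold depended on the processing, and the causes were not tested. At 24 h, 0 genes passed with all arrays and between 0 and 8691 when one of the 6 arrays of these groups was left out. With the same 24 h arrays left out, counts at 6 h, whose own arrays were all kept, were 1 to 7, against 2 with all arrays, and for 24 h minus 6 h 0 to 2, against 1. Leaving out arrays of other groups was not run. Igtp was the gene that passed without the third full-dose array or the third 1/5-dose array. Array weights gave 8948, 3935 and 2416 calls (24 h, 6 h and their difference), with a weight of 9.09 for the third full-dose array and 0.0395 for the third 1/5-dose array. The slide as a random block gave 9737, 10 and 5, at an estimated correlation within slides of -0.1685, below 0. Quantile normalization gave 3 at 24 h (BF393107, Lrrc24 and AI171093) and 0 for the difference between times, where the replicate block also gave 0. Normexp gave 1 at 6 h and 0 for the difference, as did requiring probes well above background on all arrays of both groups. With no filter on dim probes, 2 genes passed at 24 h and 2 for the difference.

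Settings chosen after seeing the data were that filter with saturated probes also left out (0 at 24 h, 1 and 0), quantile normalization without the dimmest array (1 at 24 h, 0 for the difference), the replicate block without it (1, and 6 at 6 h, and 0) and scan day as a fixed block (6 at 24 h, Igtp and Egfr among them). The replicate block left 0 calls at 24 h. Deviations of same-numbered arrays of the 2 doses correlated at -0.312, -0.543 and -0.157 at 24 h, and at 0.0796, -0.061 and 0.207 at 6 h. With 3 arrays a group, these values cannot decide whether replicate numbers pair the arrays. All 22 genes tested that the rule chose kept their sign under all 24 alternatives for 24 h in which they were tested. They include Ptgs1, Ptgs2 and the 4 genes at the scanner's ceiling. For all but Ptgs1 and Ptgs2 this was partly fixed in advance, as genes without overlap cannot change sign when an array is left out. The 4 genes at the ceiling show no direction. In 71 of 503 comparisons one of the 22 passed the threshold. Array weights, the slide block and leaving out the second 1/5-dose array called 8948, 9737 and 8691 of all 30385 genes, so this count is no result about the named genes. Signal limits the dim genes: levels of probes not well above background, and of saturated ones, are bounds.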
